A study of Mus musculus with 16 samples.

Results

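The 40 genes described here code for proteins that copy DNA and divide the cell, and they were followed across the arrays of a mouse hippocampus study. A member was measured where a probe set of the Affymetrix array carries that gene as its only symbol, and where several did, the one with the highest mean over the 16 arrays stood for the gene. That gave values for 39 of the 40 genes, out of 18193 genes with such a probe set, and no value was taken for Ccnb1, cyclin B1. On a filter of more than 4 log2 on at least 4 arrays, 12 of the 39 entered the tests (Mcm4, Mcm5, Mcm6, Mcm7, Cdt1, Pcna, Rrm1, Hells, Ccne2, Cks2, Cdc20 and Cenpa) and 27 did not.

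Replication origins are licensed when the MCM helicase is loaded onto DNA, and mitosis is driven later by cyclin B and its kinase, the Aurora and Polo kinases and the spindle. Most of these genes are switched on together by E2F factors before S phase and by B-Myb and FoxM1 in G2, and are silent in cells that have left the cycle. In the adult hippocampus nearly all neurons are post-mitotic, and division is known mainly from progenitors of the dentate gyrus, oligodendrocyte precursors and, at low rates, microglia and vascular cells. Because whole tissue was measured, fewer dividing cells and less RNA per cell cannot be told apart.

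All mice were males of 12 months, 4 per group, and RNA of the hippocampus of each mouse was put on its own array. SAMP8 is a senescence-accelerated line whose memory is impaired at this age, and 3 groups were SAMP8: mice given an oligonucleotide antisense to the amyloid precursor protein message by intravenous injection (AβPP-Antisense, called AbPP antisense), mice given a random antisense oligonucleotide by the same route (Random-Antisense, called Random antisense), and untreated mice. The fourth group, Control, consisted of untreated mice of a 50% backcross of SAMP8 with CD-1, so these controls carry much of the SAMP8 background and have no memory deficit. The treatment label of Random antisense 1 reads none, against its title, and it was kept with its title's group.

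Control 4 and AbPP antisense 4 stood apart from the other arrays. The median over all probe sets was 4.74 log2 on Control 4, against 4.29 to 4.44 on the others. Correlated over the 23905 tested probe sets with each of the other 15 arrays, Control 4 reached a median r of 0.922 and AbPP antisense 4 one of 0.905, against 0.958 to 0.989 for the rest. On AbPP antisense 4 the 3' probe sets of Gapdh and actin exceeded the 5' ones by 1.26 and 3.89 log2, against at most 0.02 and 1.60 on any other array, a usual sign of partly degraded RNA. On every array 2 neuron markers read high. Snap25, a synaptic protein of neurons, read 14.08 to 15.26 log2, and Neurod6, a factor of hippocampal pyramidal neurons, 9.51 to 12.30. They are 2 of 10 measured hippocampal neuron markers. The mean of the 9 tested ones, taken as below, was -1.44 on AbPP antisense 2, -1.22 on AbPP antisense 4 and -0.52 on Control 4. On the other arrays it was -0.41 to 0.47. Each comparison below is given with all arrays and without Control 4.

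Of the 10 tested members whose values are given on every array (up to 3 of highest mean per role), promoters are shown for 4. These are the 4 with a sequence whose value on Control 4 exceeded the median of the other arrays most. They are shown because nearly all members were highest on that 1 array, and whether the members share regulation was not tested. Sequences are RefSeq's windows from 250 bases before to 50 bases after the start of the gene on GRCm38.p6, written 5′ to 3′ on the gene's strand; 32 of the 39 measured members have 1 or more, 35 windows in all. Capitals mark, on both strands, the E2F core (TTCCCGC, or the core spelled TTCGCGC, spelled TTGGCGC or spelled TTGCCGC), the cell cycle homology region or CHR (TTTGAA or TTCGAA) and the CCAAT box (CCAAT). Matches that overlap run into 1 stretch of capitals. The windows lie at chr4:118437294-118437593, minus strand, for Cdc20; at chr5:30666636-30666935, plus strand, for Cenpa; at chr8:75109259-75109558, plus strand, for Mcm5; and at chr13:51644982-51645281, plus strand, for Cks2.
Cdc20: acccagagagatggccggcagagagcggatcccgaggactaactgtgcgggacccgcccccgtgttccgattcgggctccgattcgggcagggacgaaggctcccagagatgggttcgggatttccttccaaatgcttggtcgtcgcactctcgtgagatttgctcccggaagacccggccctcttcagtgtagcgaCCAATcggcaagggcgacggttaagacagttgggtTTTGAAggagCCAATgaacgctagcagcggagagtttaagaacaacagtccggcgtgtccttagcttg
Cenpa: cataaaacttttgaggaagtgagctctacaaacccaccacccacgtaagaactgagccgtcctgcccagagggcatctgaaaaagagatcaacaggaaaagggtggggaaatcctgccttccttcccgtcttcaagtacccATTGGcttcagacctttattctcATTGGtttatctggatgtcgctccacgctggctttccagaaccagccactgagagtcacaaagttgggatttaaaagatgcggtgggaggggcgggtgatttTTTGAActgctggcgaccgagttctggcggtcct
Mcm5: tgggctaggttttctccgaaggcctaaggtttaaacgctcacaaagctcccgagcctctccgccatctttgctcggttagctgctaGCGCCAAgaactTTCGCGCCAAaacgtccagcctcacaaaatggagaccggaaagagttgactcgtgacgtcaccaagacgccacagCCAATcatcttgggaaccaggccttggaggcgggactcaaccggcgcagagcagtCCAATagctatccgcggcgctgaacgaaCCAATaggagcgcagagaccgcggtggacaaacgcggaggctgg
Cks2: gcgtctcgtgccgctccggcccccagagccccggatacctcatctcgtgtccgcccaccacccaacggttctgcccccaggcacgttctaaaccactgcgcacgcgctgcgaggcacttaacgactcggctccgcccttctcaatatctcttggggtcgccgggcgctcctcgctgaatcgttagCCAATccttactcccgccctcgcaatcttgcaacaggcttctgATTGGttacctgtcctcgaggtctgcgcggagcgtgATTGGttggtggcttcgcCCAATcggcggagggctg

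In Cdc20, a mitotic gene, 1 CHR begins 18 bases before the start with CCAAT boxes at -53 and -8. The Cenpa window holds 1 CHR at 17 bases after the start and 2 CCAAT boxes, and Mcm5, a replication gene, holds E2F cores at -164, -152 and -149, of which the last pair overlap, and 3 CCAAT boxes. Cks2 holds 4 CCAAT boxes and neither of the other motifs. Of the members' 35 windows, 14 (12 genes) hold an E2F core, 18 (17 genes) a CHR and 29 (26 genes) a CCAAT box, and of the 32851 windows of all genes 9.57%, 19.2% and 37.4% do. These are matches of letters and no binding was measured.

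Nearly all members were highest on 1 array of the Control group. On Control 4, 37 of the 39 measured members had their highest value of the 16 arrays, where 14.4% of all 45037 probe sets did. In 34 of 39 the value on Control 4 was more than 1 log2 above the highest of the other 15 arrays, and in 32 more than 2 log2, against 4.49% and 2.46% of all probe sets. Each member's probe set was picked by its mean over the 16 arrays, Control 4 included, while these shares take every probe set. Over 4 log2, 21 of the 39 members were found on Control 4 only, and of the other 6 that did not enter the tests, Rrm2, Tpx2 and Kif23 were over it on 1 more array and Tyms, Bub1b and Cenpf on none. The excess of Control 4 over the median of the other 15 arrays had a median of 4.57 log2 over the members and ran from -0.11 for Bub1b to 8.38 for Mki67. Among the other 15 arrays a member's highest and lowest values lay a median of 0.64 log2 apart.

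**Figure D1:**
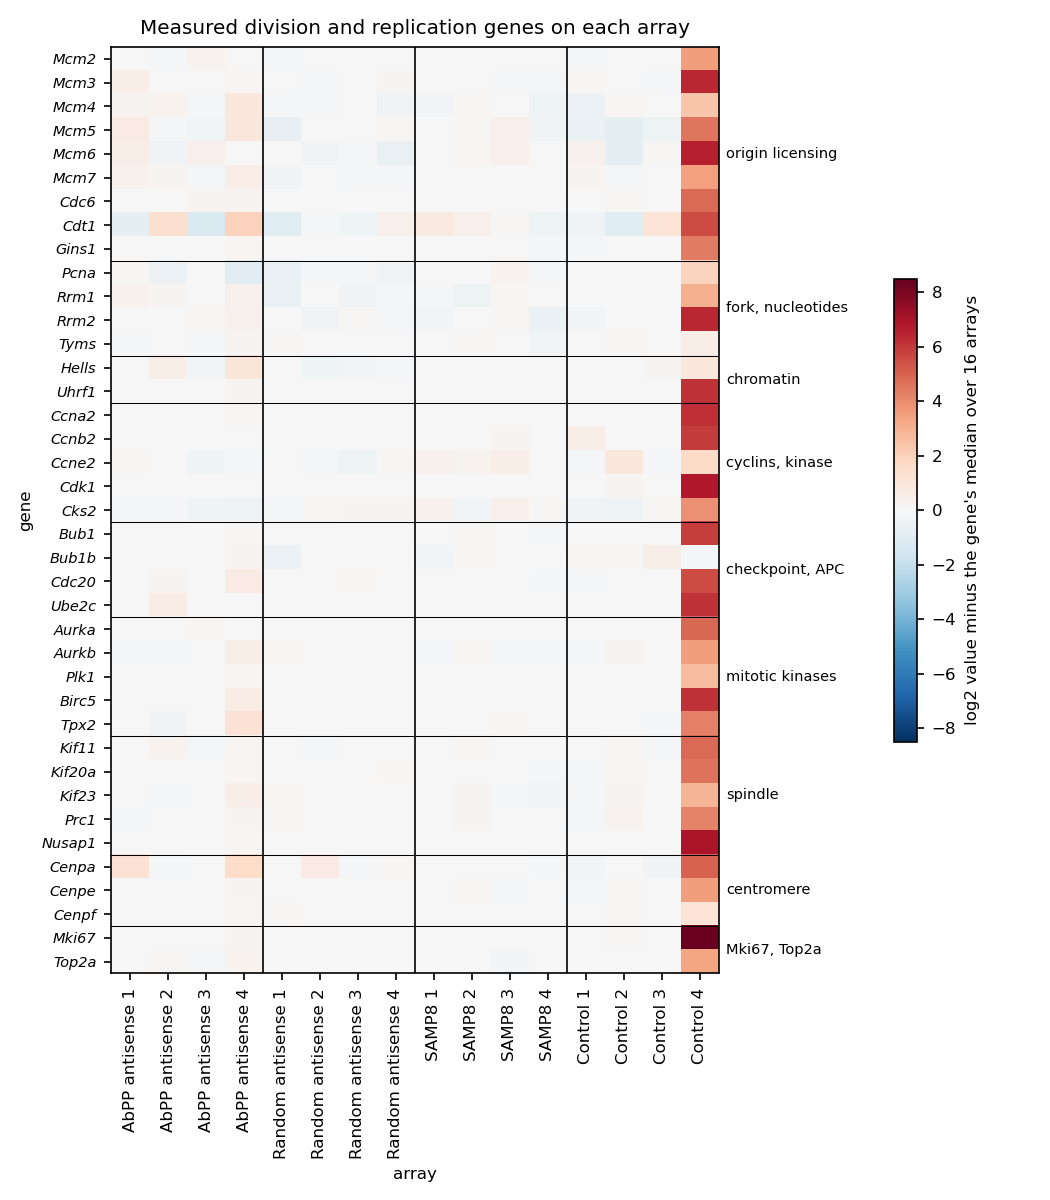
Log2 value of each of the 39 measured members (rows, by role) on each array (columns), minus that gene's median over the 16 arrays. The Control 4 column is red in most rows and pale in those of Bub1b, Tyms, Hells and Cenpf, and Mki67 is the strongest row.

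All 9 genes of origin licensing exceeded the other 15 arrays by over 1 log2 on Control 4. Mcm7 read 8.67, 8.57, 8.16 and 8.93 log2 in AbPP antisense mice, 8.01, 8.32, 8.22 and 8.22 in Random antisense mice, 8.34, 8.34, 8.28 and 8.32 in untreated SAMP8 mice, and 8.59, 8.22, 8.35 and 11.80 in Control mice 1 to 4. Mcm7 is a subunit of the helicase ring, and its partners Mcm5 and Mcm4 were also highest on Control 4. Mcm5 read 7.63, 6.84, 6.74 and 7.90 log2 in AbPP antisense mice, 6.25, 7.01, 6.93 and 7.15 in Random antisense mice, 6.97, 7.02, 7.36 and 6.66 in untreated SAMP8 mice, and 6.41, 6.16, 6.54 and 11.50 in Control mice 1 to 4. Mcm4 read 8.01, 8.08, 7.61 and 8.67 log2 in AbPP antisense mice, 7.67, 7.65, 7.79 and 7.47 in Random antisense mice, 7.55, 7.97, 7.78 and 7.32 in untreated SAMP8 mice, and 7.27, 7.97, 7.80 and 10.17 in Control mice 1 to 4. In all of them, the probe sets being 1438320_s_at, 1436808_x_at and 1436708_x_at, Control 4 lies above every other array. The other Control mice overlap the SAMP8 groups for Mcm7 and Mcm4. For Mcm5, Control 1 to 3 lie below each untreated SAMP8 mouse and each AbPP antisense mouse, and overlap the Random antisense mice. AbPP antisense 4 is the highest of the other 15 arrays for Mcm7, Mcm5 and Mcm4.

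The licensing genes that lay under or near the filter elsewhere were well over it on Control 4. Mcm6, a further ring subunit, read 10.47 log2 on Control 4, against 3.08 to 4.42 on the other arrays, and Mcm3 read 9.31, against 2.79 to 3.45. For Mcm2 the values were 7.03 and 3.34 to 3.78. Cdc6 and Cdt1 load the ring onto origins. Cdc6 read 7.80 on Control 4, against 2.90 to 3.17. Cdt1 read 9.05, against 2.32 to 5.51, the widest spread of any member among the other 15 arrays, with AbPP antisense 4 at 5.51 and AbPP antisense 2 at 4.85. Gins1, a subunit of the GINS complex that activates the helicase, read 7.24, against 2.70 to 3.01.

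At the replication fork and in the supply of nucleotides, 3 of 4 members exceeded the other arrays by over 1 log2 on Control 4. Pcna read 11.11, 10.51, 11.07 and 10.11 log2 in AbPP antisense mice, 10.48, 10.92, 10.94 and 10.74 in Random antisense mice, 11.07, 11.01, 11.31 and 10.93 in untreated SAMP8 mice, and 11.07, 11.04, 11.01 and 12.93 in Control mice 1 to 4. Pcna, the sliding clamp of DNA polymerases (1417947_at), was strong in every hippocampus and gave the smallest excess of these 3, 1.91 log2 over the median of the others. Rrm1 read 7.32, 7.22, 6.96 and 7.30 log2 in AbPP antisense mice, 6.33, 6.93, 6.67 and 6.79 in Random antisense mice, 6.83, 6.55, 7.13 and 6.89 in untreated SAMP8 mice, and 6.97, 7.01, 6.96 and 9.97 in Control mice 1 to 4. Rrm1 (1415878_at) codes for the large subunit of ribonucleotide reductase, and its values on arrays other than Control 4 lie within about 1 log2 of each other. Its partner Rrm2, the small subunit made in S phase, read 10.10 on Control 4, against 3.11 to 4.02. Tyms, thymidylate synthase, read 3.74, against 2.98 to 3.43, and did not pass 1 log2; its 3 other probe sets did not pass it either.

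Of the genes that carry chromatin states through replication, Hells, a chromatin remodeller of the SNF2 family, did not set Control 4 apart with the probe set used (1430139_at). Hells read 5.22, 5.79, 5.01 and 6.23 log2 in AbPP antisense mice, 5.25, 4.84, 5.02 and 5.15 in Random antisense mice, 5.23, 5.25, 5.21 and 5.21 in untreated SAMP8 mice, and 5.21, 5.26, 5.47 and 6.20 in Control mice 1 to 4. Control 4 and AbPP antisense 4 are level, with AbPP antisense 2 next. Another probe set of the gene, 1417541_at, read 9.29 on Control 4, against 2.91 to 4.11 elsewhere. Uhrf1, which brings DNA methyltransferase to newly copied DNA, read 9.03 on Control 4, against 2.86 to 3.16.

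Among cyclins and their kinase, 4 of the 5 measured members passed 1 log2. Cks2 read 6.37, 6.28, 6.14 and 6.05 log2 in AbPP antisense mice, 6.40, 6.55, 6.74 and 6.70 in Random antisense mice, 6.85, 6.26, 6.91 and 6.58 in untreated SAMP8 mice, and 6.20, 6.07, 6.59 and 10.38 in Control mice 1 to 4. Cks2, a small subunit that binds cyclin-dependent kinases (1417458_s_at), is highest on Control 4, and among the other arrays the 4 AbPP antisense mice lie below the 4 Random antisense mice. Ccne2 read 7.41, 7.25, 6.94 and 7.13 log2 in AbPP antisense mice, 7.28, 7.12, 6.88 and 7.40 in Random antisense mice, 7.66, 7.59, 7.85 and 7.33 in untreated SAMP8 mice, and 7.21, 8.18, 7.19 and 8.96 in Control mice 1 to 4. Ccne2, a cyclin E of the G1 to S step (1422535_at), exceeded the next array, Control 2, by 0.78 log2. Ccna2, cyclin A of S phase and G2, read 8.65 on Control 4, against 2.42 to 2.57. For Ccnb2, a cyclin B, the values were 7.99 and 1.99 to 2.62. The mitotic kinase Cdk1 read 8.83, against 2.00 to 2.26. Ccna2, Ccnb2 and Cdk1 were under 3 log2 on every array other than Control 4.

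The checkpoint and the anaphase-promoting complex gave 3 of 4 members over 1 log2. Cdc20 read 4.73, 4.96, 4.71 and 5.43 log2 in AbPP antisense mice, 4.73, 4.70, 4.86 and 4.75 in Random antisense mice, 4.74, 4.77, 4.74 and 4.60 in untreated SAMP8 mice, and 4.66, 4.77, 4.72 and 10.26 in Control mice 1 to 4. Cdc20 (1439377_x_at), the activator of that complex, lies at 4.60 to 5.43 log2 on 15 arrays, of which AbPP antisense 4 is the highest. Ube2c, its ubiquitin-conjugating enzyme, read 8.60 on Control 4, against 2.45 to 3.08. Bub1, a checkpoint kinase, read 8.25, against 2.32 to 2.47. Bub1b, the checkpoint protein BubR1, read 3.20 with its brightest probe set, within the 2.79 to 3.81 of the others, while its other probe sets, 1416961_at and 1447363_s_at, read 6.65 and 7.24 on Control 4 and at most 2.79 and 2.12 elsewhere.

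All 5 mitotic kinases and passengers passed 1 log2, and none entered the tests. Aurka, the spindle pole kinase, read 6.89 on Control 4, against 1.95 to 2.18. Its activator Tpx2 read 7.22, against 2.62 to 4.15, with AbPP antisense 4 the highest of the others. Aurkb and Birc5 (survivin) belong to the chromosomal passenger complex. Aurkb read 6.95, against 3.26 to 3.93. Birc5 read 8.58, against 2.35 to 3.05. Plk1, the Polo kinase, had the smallest excess of these 5, with 4.70 on Control 4, against 1.98 to 2.09.

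The spindle and cytokinesis genes all passed as well. Kif11, the motor that separates spindle poles, read 8.31 on Control 4, against 3.34 to 3.80. Among midzone proteins, Kif20a read 7.41, against 2.66 to 2.94. Kif23 read 6.33, against 3.20 to 4.01. These motors act with Prc1, a microtubule bundler, which read 7.34, against 3.04 to 3.44. Nusap1, a spindle-associated protein, read 9.25, against 2.32 to 2.46, an excess of 6.91 log2 over the median of the others.

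At the centromere, Cenpa and Cenpe passed and Cenpf stood just under, at 0.99 log2. Cenpa read 4.57, 3.13, 3.31 and 4.88 log2 in AbPP antisense mice, 3.32, 4.02, 3.24 and 3.39 in Random antisense mice, 3.29, 3.33, 3.29 and 3.12 in untreated SAMP8 mice, and 3.08, 3.35, 3.02 and 8.35 in Control mice 1 to 4. Cenpa, the histone H3 variant of centromeres (1450842_a_at), crossed 4 log2 on 3 arrays besides Control 4, AbPP antisense 1 and 4 and Random antisense 2. Cenpe, a kinetochore motor, read 6.24 on Control 4, against 2.56 to 2.88. Cenpf, a kinetochore protein of G2 and mitosis, read 3.67, against 2.46 to 2.68, and its probe set 1427161_at read 6.17, against 2.04 to 2.16.

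The excess was largest for Mki67, the usual marker of dividing cells. Mki67, whose protein coats mitotic chromosomes, was chosen for its size to be given in full. Mki67 read 2.85, 2.86, 2.91 and 3.10 log2 in AbPP antisense mice, 2.90, 2.87, 2.87 and 2.87 in Random antisense mice, 2.85, 2.89, 2.82 and 2.84 in untreated SAMP8 mice, and 2.84, 2.94, 2.85 and 11.25 in Control mice 1 to 4. Control 4 lies far above the 15 others, which form 1 narrow band across all 4 groups. Top2a, the topoisomerase that untangles sister chromatids, read 6.59, against 2.97 to 3.51, with the probe set used and 10.83, against 2.10 to 2.21, with 1454694_a_at. No group other than Control held an array with Mki67 over 4 log2.

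**Figure D2:**
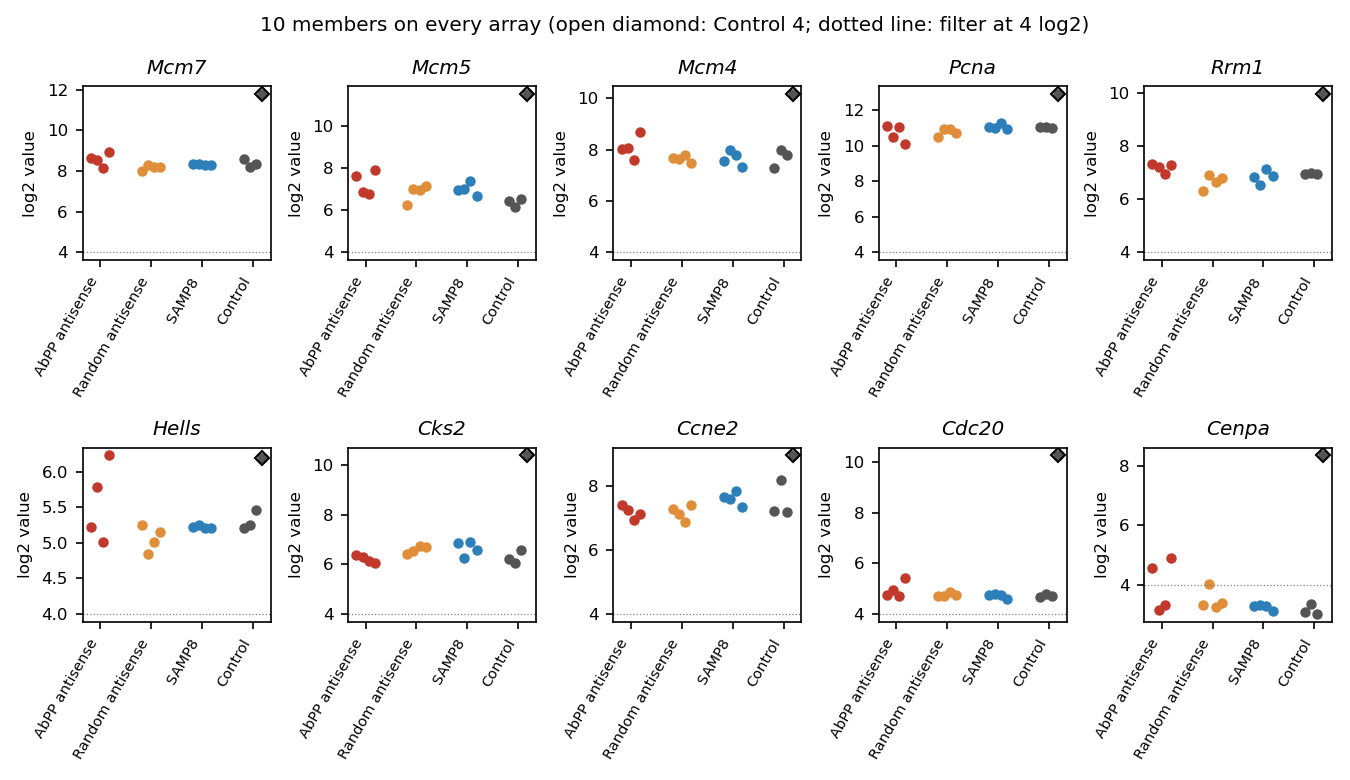
Log2 values of the 10 tested members given on every array (Mki67, not tested, is not drawn), 1 panel per gene with its own vertical scale that does not start at 0; each point is 1 mouse, the open diamond marks Control 4 and the dotted line the filter at 4 log2. Control 4 is the top point of every panel but that of Hells, where AbPP antisense 4 at 6.23 lies beside it at 6.20.

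Other probe sets of the members repeat the pattern in part. Besides those used, 51 probe sets of 29 members carry the gene as their only symbol. Of these, 30 exceeded the other arrays by over 1 log2 on Control 4, and 21 were under the filter on all 16 arrays. The counts do not split the 51: 1428105_at of Tpx2 is in both. In neither is 1453361_at of Hells, which read 4.08 on Control 4 and exceeded the other arrays by 0.70. Of the 12 tested members 10 had such an excess, and of all tested probe sets 3.69%. Cenpa, 1 of the 10, passed the filter only because Control 4 is among its 4 arrays over 4 log2. Of the 5 members below 1 log2, Hells, Bub1b and Cenpf have another probe set above it, and Tyms does not. For Ccne2 no other probe set was used.

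Genes of the same pathway that are not members followed in part. Of 41 measured further replication genes, 24 exceeded the other 15 arrays by over 1 log2 on Control 4, as did 34 of 50 further mitosis genes, 6 of 20 regulators of the G1 to S step and 2 of 12 inhibitors of the cycle. Medians of the excess over the other arrays' median were 1.87, 2.59, 0.62 and -0.05 log2 in that order, beside 4.57 for the members. Among the tested genes of each list, those of widest range over the 16 arrays are named, a choice that favours genes high on Control 4. Of the replication genes, Pola1, the catalytic subunit of DNA polymerase alpha, read 8.14 on Control 4, against 3.39 to 4.56. Pola1 passed the filter only because Control 4 is among its 4 arrays over 4 log2. Rfc5, of the clamp loader, read 8.15, against 3.95 to 6.09. Brca1, of DNA repair, read 6.93, against 3.40 to 4.92. Rpa2, of the single-strand binding protein, read 9.21, against 5.97 to 7.84.

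Among the tested mitosis genes, the 4 of widest range are named, and each was highest on Control 4. That range counts Control 4, so the choice itself favours genes high there. Smc4, of condensin, read 11.78 on Control 4, against 5.64 to 8.05. Tacc3, a spindle protein, read 8.01, against 3.97 to 5.10. Pttg1, securin, read 10.51, against 6.77 to 7.71. Mad2l1, of the spindle checkpoint, read 9.64, against 6.57 to 7.55.

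Regulators and inhibitors divided, again with the tested genes of widest range named. Cdk6, a cyclin D kinase, read 10.98 on Control 4, against 5.71 to 6.54. Cdk4 read 10.62, against 8.46 to 9.05, and its partner Ccnd1, cyclin D1, 10.68, against 8.54 to 9.46. E2f1 was not highest there. E2f1 read 5.54, 5.25, 5.12 and 7.62 log2 in AbPP antisense mice, 5.36, 4.90, 5.34 and 5.40 in Random antisense mice, 5.36, 5.18, 5.36 and 5.24 in untreated SAMP8 mice, and 5.32, 5.42, 4.51 and 5.52 in Control mice 1 to 4. Its highest value is on AbPP antisense 4, the array with the raised 3' to 5' difference. The inhibitors Cdkn1a (p21), Cdkn1c (p57), Wee1 and Rbl2 read 7.96, 6.71, 7.29 and 9.22 on Control 4, and each of the 4 lies within its own values on the other arrays. The 2 inhibitors above 1 log2, named after their values were seen, were Rbl1 at 7.54, against 2.41 to 3.05, and Cdkn2c at 6.18, against 2.42 to 2.93.

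**Figure D3:**
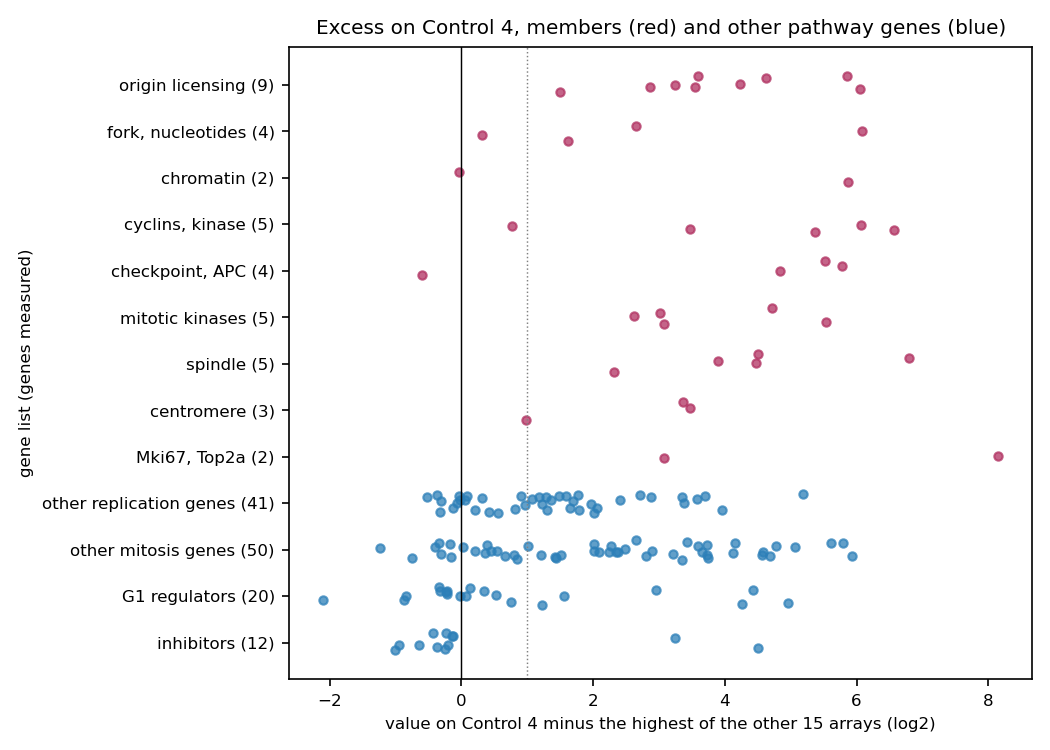
Value on Control 4 minus the highest of the other 15 arrays (log2, horizontal) for each measured gene, by list (vertical, number of genes in brackets, points spread vertically for legibility); the dotted line marks 1 log2. Of the members (red) 34 of 39 lie right of it, and of the other pathway genes (blue) 24 of 41, 34 of 50, 6 of 20 and 2 of 12.

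Markers of blood cells moved with the members on Control 4, and their part in these values was not tested. All 12 leukocyte markers exceeded the other 15 arrays by over 1 log2 there, among them Ptprc (CD45), which read 12.50 log2 on Control 4, against 5.07 to 6.90. All 7 neutrophil markers did so too. Mpo and Elane, granule enzymes made by granulocyte precursors, read 9.84, against 2.09 to 2.19, and 5.96, against 2.11 to 2.22. Of 7 B cell markers 2 did so, Cd79b at 6.50 and Ighm at 11.34, while Cd79a at 2.27 and Pax5 at 2.16 were no higher than elsewhere. Of 5 T cell markers 0 did so, and Cd3e read 2.49, within 2.47 to 2.85. Of 4 erythroid markers Hemgn did so.

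Markers of the brain's own cell types gave no such excess. None of the 11 microglia, 11 progenitor and neuroblast, 8 oligodendrocyte precursor, 10 hippocampal neuron and 8 choroid plexus markers exceeded the other arrays by over 1 log2 on Control 4, and while 5 of the 11 microglia markers had their highest value there, 0 of the progenitor and neuroblast list did. A list's mean, taken over its tested genes as the log2 value minus each gene's median over 16 arrays, was 3.71 for the 12 tested members on Control 4, against -0.16 to 0.07 on Control 1 to 3. For 7 leukocyte markers it was 4.93, against -0.70 to 0.11. For 8 progenitor and neuroblast markers it was -0.82, against -0.04 to 0.05, the lowest of all arrays. The 8 oligodendrocyte precursor markers were lowest there as well, at -0.93.

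**Figure D4:**
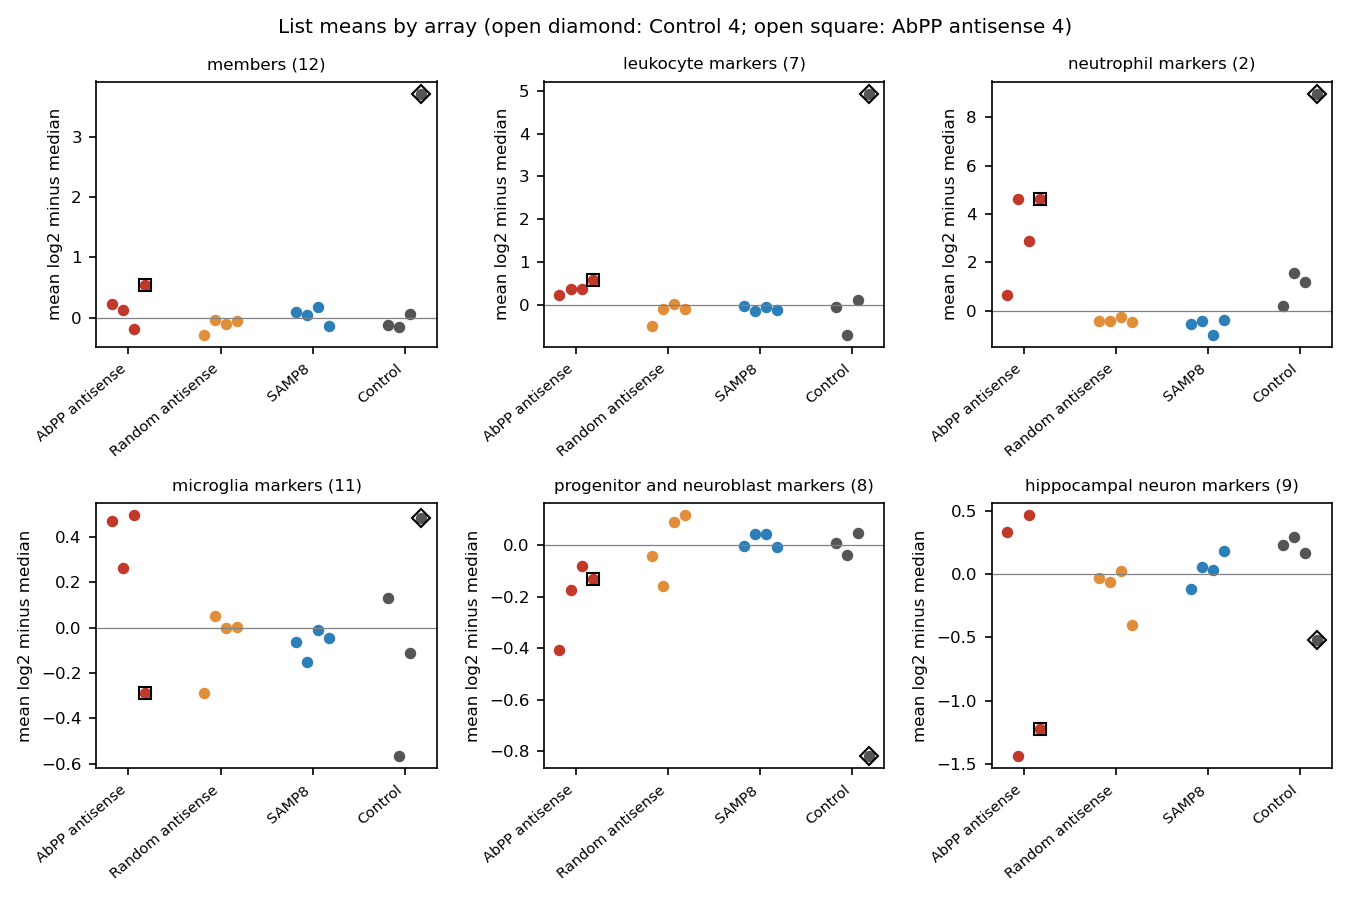
Mean over the tested genes of 6 lists on each array (log2 value minus the gene's median over 16 arrays, each panel on its own scale), with Control 4 as an open diamond and AbPP antisense 4 as an open square. Control 4 is highest for members (3.71), leukocyte (4.93) and neutrophil markers (8.98) and lowest for progenitor and neuroblast markers (-0.82).

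Random antisense mice are the control for the injected AbPP antisense oligonucleotide. No member passed the threshold of 0.05 on the adjusted p in this comparison, of 12 tested, where 0.0837% of all tested probe sets did; without Control 4 the count was again 0, beside 0.243%. Of the 12, 0 had an unadjusted p under 0.05 (limma) with all arrays and 4 did without Control 4. Of the 23905 tested probe sets, 2935 and 3974 did. Differences over the 39 measured members, AbPP antisense minus Random antisense, had a median of 0.05 log2. Over the 12 tested members the median was 0.44, with 10 positive, beside 0.01 over all tested probe sets, of which 51.0% were positive. The groups did not overlap for 2 of the 12, beside 7.58% of tested probe sets.

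Those 2 members are Rrm1 and Cks2, and they point opposite ways. Rrm1 averaged 7.20 ± 0.16 log2 in AbPP antisense mice and 6.68 ± 0.25 in Random antisense mice (SD, n = 4 each), a difference of 0.52 ± 0.50 (SE, limma adjusted p = 0.713), with an adjusted p of 0.134 without Control 4. Its other tested probe set, 1448127_at, gave a difference of -0.98 log2, the opposite sign (limma adjusted p = 0.498). Cks2 averaged 6.21 ± 0.14 in AbPP antisense mice and 6.60 ± 0.15 in Random antisense mice, a difference of -0.39 ± 0.67 (limma adjusted p = 0.857, and 0.243 without Control 4). With 1417457_at the difference of Cks2 was 0.04. For both genes the probe sets disagree in sign.

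The helicase genes lay on the positive side without passing the test. Differences of AbPP antisense minus Random antisense were 0.45 ± 0.45 log2 for Mcm4, 0.44 ± 0.86 for Mcm5, 0.43 ± 1.10 for Mcm6 and 0.39 ± 0.56 for Mcm7 (SE). Hells had the smallest adjusted p of the members with all arrays, at 0.50 ± 0.25 (limma adjusted p = 0.437). AbPP antisense 4 is the highest of the 15 arrays other than Control 4 for 23 of the 39 members, and for 41.2% of all probe sets. Without it and Control 4, the median difference was 0.21 log2 over the 12 tested members, of which 11 were positive, and 0.01 over all 39. Of all tested probe sets, 52.4% were then positive.

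Against untreated SAMP8 mice no member passed either. With all arrays 0 of 12 tested members passed, beside 0.289% of all tested probe sets, and without Control 4 again 0, beside 0.573%. Unadjusted p-values under 0.05 (limma) numbered 0 and 3 of the 12, and 3507 and 4584 of the 23905 tested probe sets. Cenpa, 1 of those 3, passed the filter only with Control 4 counted. The median difference over the 39 members, AbPP antisense minus untreated SAMP8, was 0.08 log2, and over the 12 tested members it was 0.25, with 9 positive. Of all tested probe sets, 50.7% were positive. In 0 of 12 did the groups fail to overlap, beside 7.96%. Pcna gave -0.38 ± 0.36 and Ccne2 -0.42 ± 0.31, both lower in AbPP antisense mice (limma adjusted p = 0.651 and 0.541). Cenpa gave 0.72 ± 0.89 (limma adjusted p = 0.741), with AbPP antisense 1 and 4 high and the other 2 mice among the untreated values.

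Some markers of other cell types passed the test in these comparisons. Without Control 4, and not with it, Ptprc was higher in AbPP antisense mice than in Random antisense mice by 1.18 log2 and than in untreated SAMP8 mice by 1.40, and S100a8, a granulocyte protein, by 3.79 and 4.17 (limma adjusted p = 0.0498 and 0.0187 for Ptprc, 0.0498 and 0.0269 for S100a8; at least 0.208 with Control 4). The mean of the 2 tested neutrophil markers ran from 0.66 to 4.62 in AbPP antisense mice, against at most -0.25 in Random antisense mice and at most -0.41 in untreated SAMP8 mice. On Control 1 to 3 the same mean was 0.21, 1.56 and 1.17, so it was not raised in AbPP antisense mice alone. Mpo read at most 2.19 in AbPP antisense mice, the level of all other arrays except Control 4. Of the 8 choroid plexus markers, 4 were lower in AbPP antisense mice than in untreated SAMP8 mice, among them Clic6 with a difference of -2.45 log2 (limma adjusted p = 0.00837). The mean of 9 hippocampal neuron markers was lowest on AbPP antisense 2 and 4, at -1.44 and -1.22. The part of any of these in the members' values was not tested.

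No member passed the test for the random oligonucleotide alone either. In Random antisense minus untreated SAMP8, 0 of 12 tested members passed, beside 0% of all tested probe sets, with and without Control 4. In both fits 0 of the 12 had an unadjusted p under 0.05 (limma), beside 267 and 504 of the 23905 tested probe sets. The median difference was -0.16 log2 over the 12 tested members, of which 10 were negative, and 0.02 over all 39. Differences were positive for 47.1% of all tested probe sets. Of the 12, 0 had groups that did not overlap, beside 8.1%. Values for the tested members ran between -0.47 ± 1.10 for Cdt1 and 0.24 ± 0.89 for Cenpa.

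Between the lines, the size of the members' differences depended on Control 4. In untreated SAMP8 minus Control, 0 of 12 tested members passed with all arrays, beside 0.36% of all tested probe sets, and 0 without Control 4, beside 0.343%. Unadjusted p-values under 0.05 (limma) numbered 0 and 2 of the 12, and 1047 and 909 of the 23905 tested probe sets. With Control 4 the median difference over the 39 members was -1.12 log2, and all 39 were lower in SAMP8. Without it the median was -0.016 log2, and 27 of 39 were lower. Over the 12 tested members the median was -0.77 with Control 4, with 12 lower, and 0.06 without it, with 5 lower. Over all tested probe sets the median was 0.04 with Control 4, with 58.4% higher in SAMP8, and 0.0037 without it, with 51.1% higher.

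Single members show how 1 array set the means. Mcm7 averaged 8.32 ± 0.03 log2 in untreated SAMP8 mice and 9.24 ± 1.71 in Control mice (SD, n = 4 each), or 8.39 ± 0.19 in Control 1 to 3. Mki67 averaged 2.85 ± 0.03 in untreated SAMP8 mice and 4.97 ± 4.19 in Control mice, or 2.87 ± 0.06 in Control 1 to 3. Mcm6 had the largest difference of the tested members with all arrays, -1.45 ± 1.10 (SE), and 0.23 ± 0.27 without Control 4. The groups did not overlap in 0 of 12 members with Control 4, beside 4.81%. Without it they did not overlap in 1, Mcm5, beside 9.33%: its difference was 0.63 ± 0.29 log2, higher in SAMP8 (limma adjusted p = 1), against -0.65 ± 0.86 with all arrays.

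**Figure D5:**
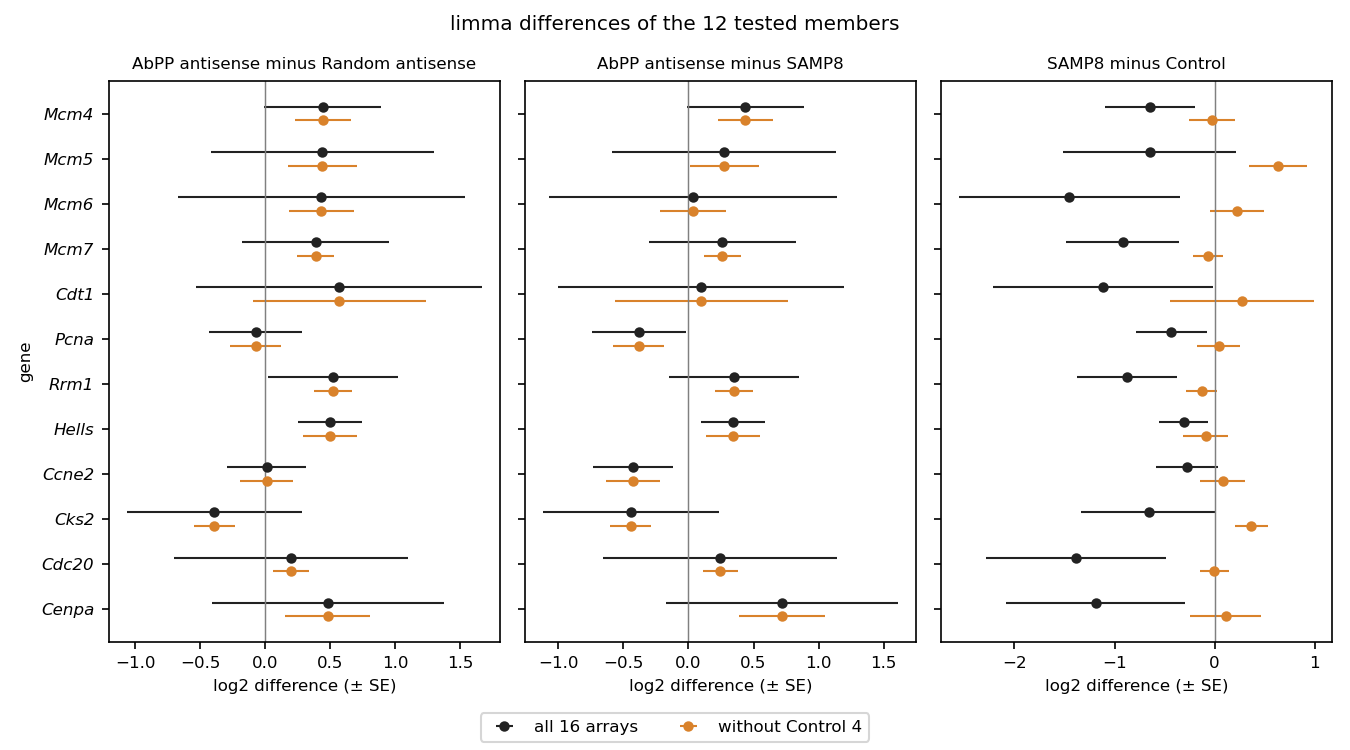
limma differences (log2, bars are SE) of the 12 tested members in 3 comparisons, with all 16 arrays (black) and without Control 4 (orange). Leaving out Control 4 shortens the bars in all panels, since 1 spread is shared by the groups, and the points of SAMP8 minus Control then lie between -0.13 and 0.63, in place of between -1.45 and -0.28.

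Comparisons that share mice are not independent: AbPP antisense mice enter the first 2, and untreated SAMP8 mice the last 3. Of the further pathway lists, 0 genes passed in any of the 4 comparisons with all arrays or without Control 4, among 26 tested replication genes, 13 mitosis genes, 12 regulators and 8 inhibitors. In AbPP antisense minus Random antisense, 20 of the 26 and 8 of the 13 differences were positive, beside 51.0% of all tested probe sets. In untreated SAMP8 minus Control with all arrays, 1 of the 26 and 1 of the 13 were, beside 58.4%, and without Control 4, 11 and 7, beside 51.1%.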

How the data were processed

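Per the labels, biotinylated cRNA from 4 µg of total RNA of each hippocampus was hybridised to an Affymetrix array. The deposited values are log2 values to which the authors applied GCRMA, per the submitters' processing notes; for its version nothing is given in these sources, and scanned intensities were not analysed here. No detection calls accompany them, so a low value is not read as absence. All 16 columns were used, so 0 columns of values were left aside. Of 45101 probe sets, 64 controls were removed; of the other 45037, 34945 have 1 symbol in GEO's platform annotation, 932 several and 9160 none. The 39 measured members matched current gene names through Entrez identifiers, with 0 changed.

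Groups came from sample titles. A probe set was tested where it was over 4 log2 on at least 4 arrays (23905 tested, 21132 not). limma 3.58.1 in R 4.3.3 fitted 4 groups of 4 arrays with no covariate (12 residual and 2.63 prior degrees of freedom). Adjusted p-values are Benjamini-Hochberg's, taken over all tested probe sets, with a threshold of 0.05. Tables and figures used Python 3.11.15, pandas 2.3.3 and matplotlib 3.10.9. The code was tested on simulated data. Each array is 1 mouse, and 4 arrays per group limit the precision. Replicate numbers recur across groups; over 24 same-numbered pairs the correlation of deviations from group means ran from -0.275 to 0.236, so they were not taken to pair mice.

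Members were chosen by symbol, and the members, the lists of other pathway genes and the cell type markers, written from general knowledge, were chosen with earlier results of these data known. Values on every array are given for up to 3 tested members of highest mean per role, and names of other pathway genes for up to 4 of widest range per list among those tested; genes outside this rule are marked or serve as markers. Alternatives changed the filter, arrays, block, variance model, weights, the group of Random antisense 1 and the probe set of a gene. The 7 members that have no promoter window in the table used are Mcm4, Gins1, Ccna2, Ccne2, Aurkb, Tpx2 and Kif20a.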

Additional observations from a re-analysis of the deposited data

Results flagged for a closer look

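In each group of 4 arrays, the highest or lowest array was set against its nearest neighbour, as a share of the group's range, for the 39 measured members, 16 other pathway genes and the means of the marker lists. A share above Dixon's 95% critical value was found 71 times in 256 groups. The 5% that this value allows is no yardstick here. The 16 other pathway genes were taken for their wide range over the arrays, and nearly all members were highest on the same array, Control 4. The counts are a description. Control 4 accounts for 47 of them. Values are log2. Control 4 lay far above the other Control mice for Mcm2 at 7.03, Mcm3 at 9.31, Mcm5 at 11.50, Mcm6 at 10.47, Mcm7 at 11.80, Cdc6 at 7.80, Gins1 at 7.24, Pcna at 12.93 and Rrm1 at 9.97. It did so too for Rrm2 at 10.10, Uhrf1 at 9.03, Ccna2 at 8.65, Ccnb2 at 7.99, Cdk1 at 8.83, Cks2 at 10.38, Bub1 at 8.25, Cdc20 at 10.26 and Ube2c at 8.60. The same array stood apart for Aurka at 6.89, Aurkb at 6.95, Plk1 at 4.70, Birc5 at 8.58, Tpx2 at 7.22, Kif11 at 8.31, Kif20a at 7.41, Kif23 at 6.33 and Prc1 at 7.34. Further members there were Nusap1 at 9.25, Cenpa at 8.35, Cenpe at 6.24, Cenpf at 3.67, Mki67 at 11.25 and Top2a at 6.59. Other pathway genes far above the remaining Control mice on Control 4 were Rfc5 at 8.15, Rpa2 at 9.21, Brca1 at 6.93, Mad2l1 at 9.64, Pttg1 at 10.51, Smc4 at 11.78, Tacc3 at 8.01, Cdk4 at 10.62 and Cdk6 at 10.98. The mean of a marker list was high on Control 4 for leukocyte markers at 4.93 and the 2 tested neutrophil markers at 8.98. It was low there for progenitor and neuroblast markers at -0.82 and hippocampal neuron markers at -0.52. The B cell value, high at 4.25, rests on 1 tested gene. Of 7 measured B cell markers, 2 exceeded the other 15 arrays by over 1 log2.

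AbPP antisense 4, whose 3' probe sets of Gapdh and actin exceeded the 5' ones most, accounts for 10. They were Uhrf1 at 3.16, Ccna2 at 2.57, Bub1b at 3.54, Plk1 at 2.09, Birc5 at 3.05, Kif23 at 4.01, Nusap1 at 2.46, Cenpe at 2.88, Cenpf at 2.68 and E2f1 at 7.62, each the highest of its group; apart from E2f1 and Kif23 they read under 4 log2, and their groups spanned 0.64 log2 or less. The other 14 were scattered over 8 arrays. SAMP8 2 stood apart in its group for Uhrf1 at 2.96, with a median of 2.86 in the other 3, Kif11 at 3.64, with a median of 3.48 in the other 3 and Prc1 at 3.35, with a median of 3.11 in the other 3. Random antisense 1 stood apart in its group for Bub1b at 2.79, with a median of 3.32 in the other 3 and Mki67 at 2.90, with a median of 2.87 in the other 3. AbPP antisense 2 stood apart in its group for Ube2c at 3.08, with a median of 2.48 in the other 3. SAMP8 3 stood apart in its group for Tpx2 at 3.10, with a median of 2.90 in the other 3. Random antisense 2 stood apart in its group for Kif11 at 3.35, with a median of 3.51 in the other 3, Tacc3 at 4.56, with a median of 4.58 in the other 3 and E2f1 at 4.90, with a median of 5.36 in the other 3. Random antisense 4 stood apart in its group for Cdkn1c at 6.99, with a median of 6.37 in the other 3. Among marker means, the neutrophil mean was -0.25 on Random antisense 3, the erythroid mean was 2.67 on SAMP8 4 and the microglia mean was -0.29 on Random antisense 1.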

How the results depend on the processing

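The count of members called stayed 0 in each of the 4 comparisons under 25 alternatives each, with lowest adjusted p-values of 0.134, 0.166, 0.153 and 0.684 (limma; AbPP antisense minus Random antisense, AbPP antisense minus SAMP8, Random antisense minus SAMP8, SAMP8 minus Control) and at most 4, 3, 3 and 2 unadjusted p-values under 0.05. They include a fit of every probe set without Control 4, added after seeing the data, which holds all 39 measured members. With a replicate block the counts were again 0, the lowest adjusted p-values 0.386, 0.49, 1 and 0.999, and the numbers do not pair the mice: 5 of 16 arrays correlated best with their own number. The median difference over the members is a description. In SAMP8 minus Control it was -1.12 log2 and, leaving out 1 array at a time, ran from -1.52 (without Control 1) to -0.016 (without Control 4); leaving out AbPP antisense 4 together with Control 4 gave -0.016 and array weights gave -0.12. Over the 7 members past a filter of 6 log2 it was -0.65, and with the mean of tested probe sets, over 12 members, -0.77. The same settings gave 0.39 and 0.35 in AbPP antisense minus Random antisense, against 0.05 with all members, and -0.17 and -0.16 in Random antisense minus SAMP8, against 0.02; the stricter filter gave 0.26 in AbPP antisense minus SAMP8, against 0.08. These settings hold fewer and stronger members. Of 1228 single differences under alternatives, 57 changed sign, 7 of them in SAMP8 minus Control without Control 4, and 0 changed a call. The count of 34 members above the other arrays on Control 4 was 32 to 37 under 4 alternatives added after seeing the data. Calls over all tested probe sets moved more: 20 in AbPP antisense minus Random antisense became 58 without Control 4, 896 without AbPP antisense 3 and 0 with only the 8 arrays compared; 69 in AbPP antisense minus SAMP8 became 137, 1286 and 5, and 31 with no filter. In Random antisense minus SAMP8 the 0 calls (267 unadjusted p-values under 0.05, limma) became 19 with array weights, and in SAMP8 minus Control the 86 became 295 with array weights and 23 with the mean of tested probe sets. The cause was not tested. The 4 arrays per group, the lack of detection calls and a normalization that was not repeated limit all of these values.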
